A study of Mus musculus with 6 samples.

Results

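Solute carriers are membrane proteins that move sugars, amino acids, metal ions, inorganic ions, organic acids, nucleotide sugars and vitamins across the plasma membrane or the membranes of organelles. They are numbered in families that mostly share a fold and a kind of substrate, so a family number says roughly what a member carries. Some bring nutrients in with the sodium gradient, some exchange one solute for another, and most of the Slc25 family passes metabolites across the inner mitochondrial membrane. In skin, the keratinocytes of the epidermis have no blood vessels among them and are fed by diffusion from the dermis, while fibroblasts live in the matrix beside the vessels. Members here are the probe sets paired with exactly 1 gene symbol that starts with Slc followed directly by a digit. There were 178 of them among the 15648 probe sets deposited, for 169 genes of the 10261 that had 1 symbol. The RefSeq gene table of GRCm38.p6 lists 375 protein-coding genes with such a symbol, so the 169 are a part of the class.

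The data are 6 Affymetrix arrays of the type MoGene-1_0-st, which read a transcript with a set of short probes. Of these, 3 are labelled as primary keratinocytes from the back skin of newborn (P0) mice, which were cultured in the keratinocyte medium CnT-07, and 3 as MEFs, fibroblasts taken from mouse embryos at E13.5, pooled after head and inner organs were removed and cultured in DMEM with fetal bovine serum and added non-essential amino acids. The labels call the 3 arrays of each group biological replicates, and the cells were untreated. The study's methods give C57BL/6J for the MEFs and no strain for the keratinocytes, whereas the isolation protocol in the labels names DR-4 as the desired strain for MEFs. Age, medium and cell type differ together between the groups and cannot be told apart. Fewer cells of a type and less RNA per cell cannot be told apart in such bulk RNA either.

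The labels were checked with Cdh1, which encodes the epithelial adhesion protein E-cadherin, and Vim, which encodes the mesenchymal filament protein vimentin. Cdh1 had a log2 signal of 3.33, 2.16 and 3.26 on the keratinocyte-labelled and 8.62, 8.59 and 8.73 on the MEF-labelled arrays, and Vim one of 11.93, 11.97 and 12.03 on the keratinocyte-labelled and 3.81, 3.92 and 3.78 on the MEF-labelled arrays. Both therefore ran against the labels (exact two-sided permutation test, p = 0.1 for each, the smallest p that 3 arrays against 3 allow). Of the markers listed for this report, 12 of 12 epithelial genes were higher on the MEF-labelled arrays, with a summed linear signal of 19598 to 19849 against 118 to 124, and 12 of 12 mesenchymal genes on the keratinocyte-labelled ones, with 25359.5 to 26269.8 against 639 to 710. Of other cell types, 4 of 5 cartilage and 2 of 3 muscle markers were higher on the keratinocyte-labelled arrays, beside 32.9% of all genes tested. The cartilage genes summed to 576 to 638 there against 289 to 301 and the muscle genes to 163 to 261 against 58.8 to 66.8. Of the cartilage genes, Acan, Col9a1 and Comp were above the background given further on on no array. Sox9 was above it on all 6 arrays and higher on the MEF-labelled ones. Of the muscle genes, Des was above it on 1 array. The macrophage genes Cd68 and Lyz2 went opposite ways, with sums of 47.97 to 75.3 on the keratinocyte-labelled and 349 to 414 on the MEF-labelled arrays. The endothelial gene Kdr was higher on the MEF-labelled arrays, with no array above the background given next, and the neural gene Tubb3 did not pass. The part of these cells in the results below was not tested. Of the 8 melanocyte, 10 erythroid and 6 adipocyte markers listed, 0 were measured with 1 symbol, so nothing can be said here on those cells. Directions below follow the labels. The keratinocyte-labelled arrays thus carried the mesenchymal and the MEF-labelled arrays the epithelial marker signal. For each group the labels and the markers name opposite cell types, and whether labels or columns were exchanged was not tested. A direction below is therefore one between labels and cannot be read as one between the cell types, ages or media that the labels name. The medians of the arrays ran from 6.16 to 6.22 on the keratinocyte-labelled and from 6.25 to 6.31 on the MEF-labelled arrays. RMA evens out the arrays over all their probes, so this closeness says little about their quality. The probe sets of olfactory receptors, 10 in all, set the background of an array by their 95th percentile, and it ran from 5.49 to 5.92 on the keratinocyte-labelled arrays and 6.05 to 6.58 on the MEF-labelled arrays. On MEF-labelled replicates 1 and 3 it lay above the median of the array (6.53 against 6.25 and 6.58 against 6.31), on the other arrays below. With so few probe sets it is a rough bar, and a higher one on the MEF-labelled arrays. The same signal can thus pass it on a keratinocyte-labelled array and not on a MEF-labelled one. A gene at or under it on every array of a group has only a bound there, so its fold is given as "at least". No fold is given where that bound came under 1 or where no array was above background, and a gene not above background need not be silent.

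Of the 169 Slc genes, 130 differed between the groups (limma, Benjamini-Hochberg adjusted p under 0.05), which is 76.9% of them beside 74.5% of all genes tested. Higher signals on the keratinocyte-labelled arrays were found for 66 (39.1%, beside 32.9% of all genes) and on the MEF-labelled arrays for 64 (37.9%, beside 41.7%). The median log2 difference, keratinocyte-labelled minus MEF-labelled, was 0.04 over the Slc genes and -0.12 over all genes. Centring each array on its median moves that of all genes to 0.01 and that of the Slc genes to 0.16. Differences of this size thus depend on scaling, while the Slc median lay above that of all genes with and without centring. A difference of at least 1 on the log2 scale was reached by 59 Slc genes (34.9%, beside 28.4% of all genes), 31 toward the keratinocyte-labelled and 28 toward the MEF-labelled arrays, where the shares of all genes were 14.1% and 14.4%. Groups of 3 arrays did not overlap for 138 Slc genes (81.7%, beside 78.4%). On no array was the signal above background for 47 Slc genes (27.8%, beside 26.8%). The shares of Slc genes called thus lay near those of all genes. For each Slc gene named below as higher in a group, all 3 arrays of that group lay above the 3 of the other.

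**Figure D1:**
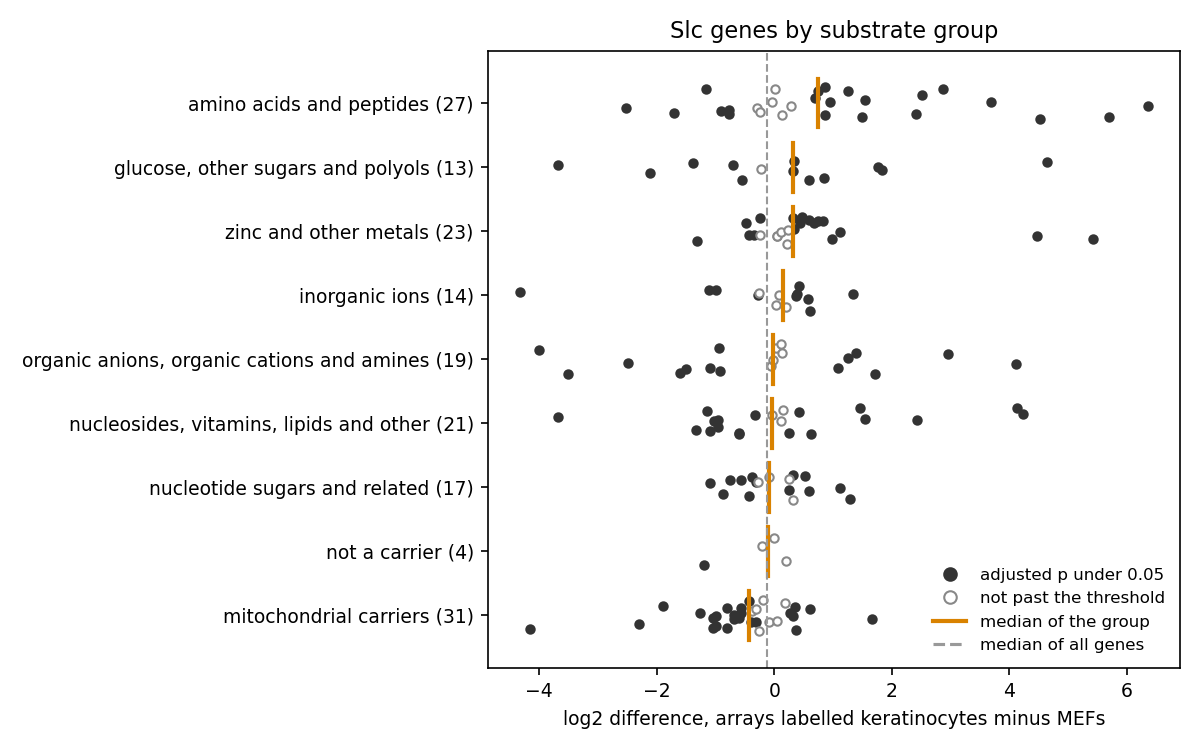
Log2 difference of each of the 169 Slc genes (horizontal axis, arrays labelled keratinocytes minus arrays labelled MEFs) by substrate group, with the number of genes in brackets, filled points for genes past the threshold, orange bars for group medians and a dashed line for the median of all genes at -0.12. Amino acid carriers have a median of 0.75 with 5 genes at 2.87 or more, and mitochondrial carriers a median of -0.44.

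Amino acid and peptide carriers were the group with the highest median difference, at 0.75. Of 27 measured, 15 were higher on the keratinocyte-labelled arrays, 6 on the MEF-labelled arrays and 6 did not pass. The share called, 77.8%, is near the 74.5% of all genes. By direction it was 55.6% and 22.2%, beside 32.9% and 41.7% of all genes. Slc38a1, Slc38a2 and Slc38a4 encode sodium-coupled carriers of small neutral amino acids such as alanine and glutamine (system A), and they follow each other on chromosome 15 with 0 protein-coding genes between them. Slc38a1 had log2 signals of 8.72, 8.81 and 8.84 on the keratinocyte-labelled and 3.04, 2.90 and 3.37 on the MEF-labelled arrays, which is at least 5.28-fold higher (adjusted p = 6.43e-09), and its second probe set gave 7.61, 7.10 and 7.22 on the keratinocyte-labelled and 1.34, 1.85 and 1.50 on the MEF-labelled arrays. Slc38a4 stood at 8.75, 8.68 and 8.60 on the keratinocyte-labelled and 2.86, 1.84 and 2.24 on the MEF-labelled arrays, at least 4.88-fold higher on the keratinocyte-labelled arrays (adjusted p = 5.95e-08). Slc38a2, the member known to be induced by amino acid starvation and by hypertonic stress, went the other way with 10.17, 9.95 and 9.95 on the keratinocyte-labelled and 10.86, 10.91 and 11.00 on the MEF-labelled arrays, 1.86-fold higher on the MEF-labelled arrays (adjusted p = 6.35e-05). The neighbouring genes thus split, with Slc38a1 and Slc38a4 above background in 1 group alone and Slc38a2 well above it in both.

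The carriers of the cationic amino acids arginine and lysine split in the same manner. Slc7a1, the widely expressed member, had signals of 8.13, 8.24 and 8.11 on the keratinocyte-labelled and 9.37, 9.24 and 9.33 on the MEF-labelled arrays, 2.23-fold higher on the MEF-labelled arrays (adjusted p = 6.74e-06). Slc7a3 stood at 7.48, 7.11 and 7.32 on the keratinocyte-labelled and 2.64, 2.86 and 2.85 on the MEF-labelled arrays, at least 1.89-fold higher on the keratinocyte-labelled arrays (adjusted p = 1.34e-08), and Slc7a2 at 6.19, 6.33 and 6.28 on the keratinocyte-labelled and 3.03, 2.44 and 2.27 on the MEF-labelled arrays (adjusted p = 4.61e-07). Slc7a2 was above background on the 3 keratinocyte-labelled arrays only, by too little for a fold.

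Several carriers of neutral amino acids and of taurine were higher on the keratinocyte-labelled arrays. Slc7a5, the light chain of the leucine exchanger LAT1, had 10.66, 10.63 and 10.48 on the keratinocyte-labelled and 9.76, 9.66 and 9.76 on the MEF-labelled arrays, which is 1.82-fold higher (adjusted p = 5.32e-05). Slc1a5, the glutamine exchanger ASCT2, had 8.14, 8.10 and 8.16 on the keratinocyte-labelled and 6.77, 6.93 and 6.93 on the MEF-labelled arrays and was 2.39-fold higher (adjusted p = 4.07e-06), and its relative Slc1a4 was 1.62-fold higher. The taurine carrier Slc6a6 followed with 1.83-fold (adjusted p = 4.88e-05), and Slc6a17, a carrier of synaptic vesicles in neurons, was at least 1.21-fold higher, with a mean of 6.66 against 3.79. Slc43a2, a sodium-independent carrier of large neutral amino acids, went the other way at 4.23, 4.38 and 4.30 on the keratinocyte-labelled and 5.89, 5.99 and 6.15 on the MEF-labelled arrays (adjusted p = 1.25e-06), below background on all arrays. Of the glutamate carriers, Slc1a1 was higher on the MEF-labelled arrays, with means of 4.62 against 2.10, and Slc1a3 on the keratinocyte-labelled ones, with 5.32 against 4.37. Neither was above background on any array.

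Slc7a11 exchanges glutamate for cystine, the form in which cells take up most of their cysteine for glutathione. Its signals were 6.36, 5.94 and 6.16 on the keratinocyte-labelled and 6.98, 6.86 and 6.95 on the MEF-labelled arrays, 1.71-fold higher on the MEF-labelled arrays (adjusted p = 4.68e-04). Its promoter is shown because it holds a pair of matches to the C/EBP-ATF composite core TGATGNAA, by which ATF4 is known to act on this gene, on opposite strands and not overlapping. Below are the 100 bases before the RefSeq start (GRCm38.p6, chr3:50443614-50443713, minus strand), with both matches in capitals.
Slc7a11: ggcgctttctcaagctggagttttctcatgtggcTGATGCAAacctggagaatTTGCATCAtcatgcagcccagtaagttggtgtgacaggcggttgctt
The core, searched on both strands of the 250 bases before each start, was found in 2 of the 21 amino acid carriers with a promoter window, Slc7a11 and Slc7a7, and in 2.25% of the 8225 measured genes with one. Slc7a7 was higher on the keratinocyte-labelled arrays, with no array above background. An antioxidant response core, TGACNNNGC, was found in 5 of the 21 (23.8%, beside 13.7%). Of these, Slc38a2 and Slc7a1 were higher on the MEF-labelled arrays and Slc6a9 and Slc43a1 on the keratinocyte-labelled ones, Slc43a1 below background. Slc7a6 did not pass. Slc6a9, Slc7a6, Slc7a7 and Slc43a1 are named for a match alone. These matches are letters in a window, and no binding was measured.

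**Figure D2:**
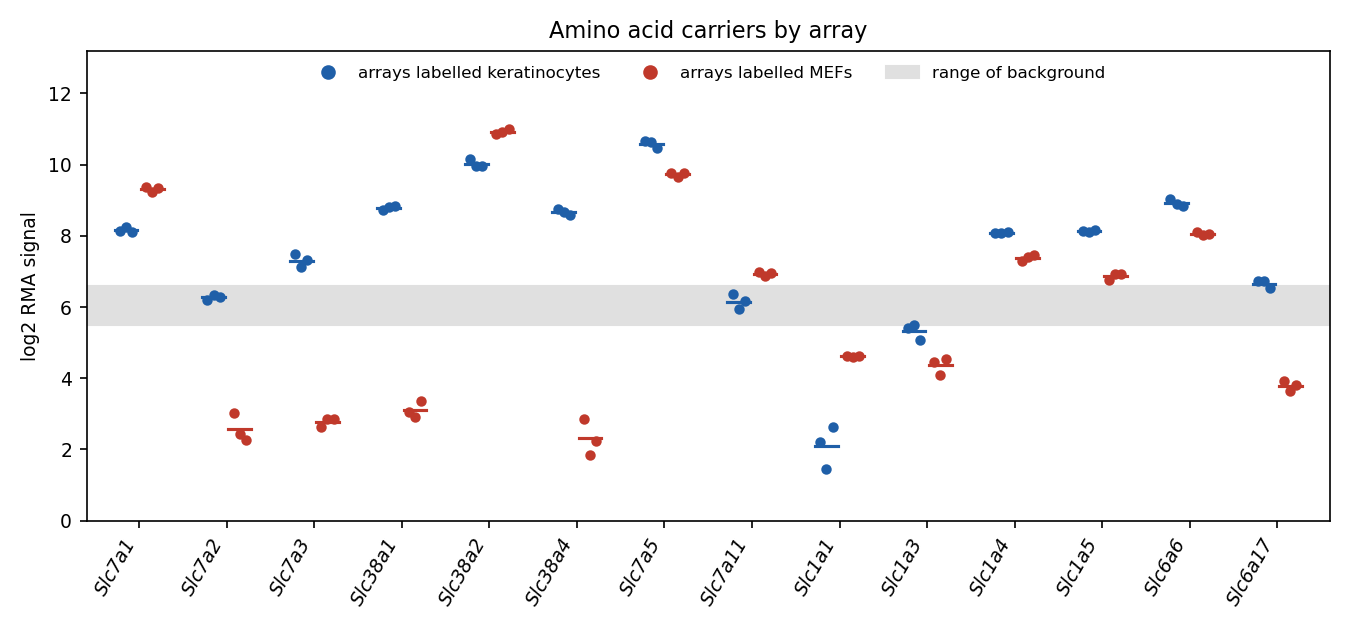
Log2 RMA signal (vertical axis) of 14 amino acid carriers in blue for the 3 keratinocyte-labelled and in red for the 3 MEF-labelled arrays, with a point for each array, a line for each group mean and a grey band for the range of background over the 6 arrays. Slc38a1, Slc38a4 and Slc7a3 lie above the band in blue and below it in red, while Slc7a1, Slc38a2 and Slc7a11 are higher in red.

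Sugar and polyol carriers differed for 12 of 13 measured genes, 7 higher on the keratinocyte-labelled arrays and 5 on the MEF-labelled ones, with a median of 0.32. That is 92.3% called, beside 74.5% of all genes. No array was above background for 6 of the 13 (46.2%, beside 26.8% of all genes). Slc2a1, the main basal glucose carrier GLUT1, is the gene that did not pass. It had 9.46, 9.27 and 9.31 on the keratinocyte-labelled and 9.51, 9.54 and 9.66 on the MEF-labelled arrays (adjusted p = 0.0619), and without replicate 1 of the keratinocyte-labelled arrays it passed (adjusted p = 0.0305), at a difference of -0.28 on the log2 scale. The filters on dim probe sets and the intensity trend also moved it past the threshold at the same difference of -0.22. The other glucose carriers showed larger differences at low signals. Slc2a3, the high-affinity carrier GLUT3, stood at 5.25, 4.98 and 5.12 on the keratinocyte-labelled and 3.12, 3.55 and 3.20 on the MEF-labelled arrays (adjusted p = 5.02e-06), below background everywhere. Slc2a10, whose loss causes arterial tortuosity in humans, had 6.27, 6.33 and 6.40 on the keratinocyte-labelled and 2.07, 1.67 and 1.35 on the MEF-labelled arrays (adjusted p = 6.93e-08) and was above background on the keratinocyte-labelled arrays only. On the MEF-labelled arrays the fructose carrier Slc2a5 was higher, with 2.44, 2.41 and 2.62 on the keratinocyte-labelled and 6.24, 6.01 and 6.27 on the MEF-labelled arrays (adjusted p = 2.33e-08), though no array was above background. The urate carrier Slc2a9 was at least 1.65-fold higher there, above background on 2 of 3 arrays, with means of 6.42 and 4.30. Slc37a1, which exchanges sugar phosphate for phosphate, was higher there too, with 5.18 against 3.79, below background on all arrays. Both measured carriers of myo-inositol, an osmolyte and a lipid head group, went toward the keratinocyte-labelled arrays. The sodium-coupled Slc5a3 had 7.09, 6.85 and 6.93 on the keratinocyte-labelled and 6.06, 6.06 and 6.21 on the MEF-labelled arrays, 1.79-fold higher (adjusted p = 1.02e-04), with 1 of 3 MEF-labelled arrays above background, and the proton-coupled Slc2a13 had 4.64 against 2.88, below it on all.

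The monocarboxylate carriers, which move lactate and pyruvate with a proton, again divided by member. Slc16a3 (MCT4), the exporter of lactate in glycolytic cells, had 8.22, 8.52 and 8.49 on the keratinocyte-labelled and 4.67, 3.99 and 4.21 on the MEF-labelled arrays, at least 4.06-fold higher on the keratinocyte-labelled arrays (adjusted p = 1.80e-07). Slc16a1 (MCT1), which works in either direction, had 7.61, 7.15 and 7.43 on the keratinocyte-labelled and 8.31, 8.28 and 8.40 on the MEF-labelled arrays, 1.91-fold higher on the MEF-labelled arrays (adjusted p = 2.04e-04). Slc16a13, a member of the family that is less well characterised, had 4.73, 5.25 and 5.07 on the keratinocyte-labelled and 9.06, 8.94 and 9.04 on the MEF-labelled arrays and was at least 9.93-fold higher on the MEF-labelled arrays (adjusted p = 4.74e-08), the highest bound among Slc genes. Slc16a4 went the other way at 3.90, 4.10 and 4.18 on the keratinocyte-labelled and 0.97, 1.08 and 1.26 on the MEF-labelled arrays, with every value under background. The chaperones that bring these carriers to the plasma membrane differed as well. Bsg, basigin, the partner of MCT1 and MCT4, was 1.26-fold higher on the keratinocyte-labelled arrays (adjusted p = 0.0136), with 9.01, 9.16 and 9.24 on the keratinocyte-labelled and 8.86, 8.74 and 8.82 on the MEF-labelled arrays. Its call was lost without replicate 2 of the MEF-labelled arrays. Emb, embigin, had 7.64, 7.17 and 7.43 on the keratinocyte-labelled and 8.54, 8.75 and 8.57 on the MEF-labelled arrays and was 2.31-fold higher on the MEF-labelled arrays (adjusted p = 6.22e-05), and Nptn, neuroplastin, of the same immunoglobulin family was 2.06-fold higher on the keratinocyte-labelled ones.

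The promoters of Slc16a3, Slc16a1 and Slc2a1 are shown because these 3 carriers of glycolytic fuel or product each hold the hypoxia response core ACGTG before the start, while their signals differed in direction or did not pass. Each line gives 100 bases of GRCm38.p6 in the direction of transcription, with the core in capitals: for Slc16a3 chr11:120948967-120949066 on the plus strand and for Slc2a1 chr4:119108645-119108744 on the plus strand, both ending at the base before the start, and for Slc16a1 chr3:104638414-104638513 on the plus strand, from 250 to 151 bases before it.
Slc16a3: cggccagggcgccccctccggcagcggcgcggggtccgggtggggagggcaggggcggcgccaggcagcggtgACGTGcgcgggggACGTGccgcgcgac
Slc16a1: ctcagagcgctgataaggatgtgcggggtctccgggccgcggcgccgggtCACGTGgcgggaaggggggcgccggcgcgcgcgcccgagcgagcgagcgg
Slc2a1: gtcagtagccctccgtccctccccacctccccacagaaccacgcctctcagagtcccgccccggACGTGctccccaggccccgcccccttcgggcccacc
Slc16a3 has 2 separate cores on the same strand, 27 and 14 bases before the start, Slc2a1 has 1 at 36 bases, and in Slc16a1 the match on one strand overlaps that on the other in a palindrome 200 bases before it. The core was found in 2 of 12 sugar carriers (16.7%) and 4 of 15 organic anion and cation carriers (26.7%) with a window, beside 25.4% of measured genes.

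**Figure D3:**
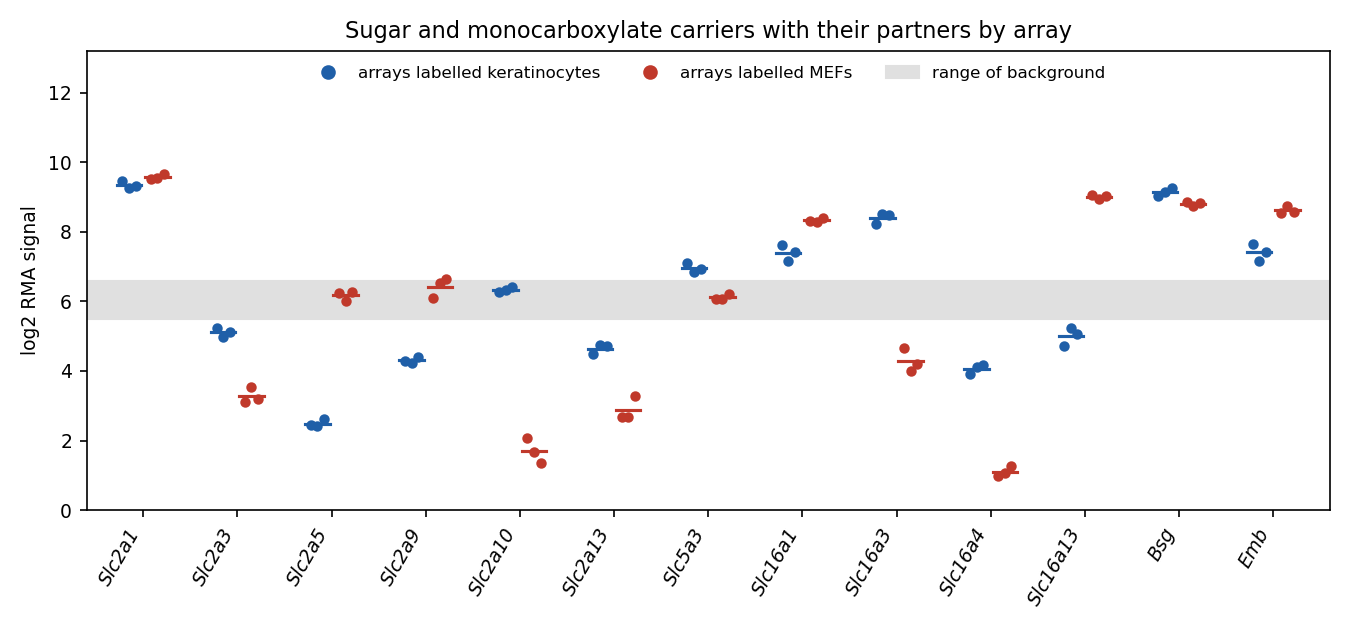
Log2 RMA signal (vertical axis) of sugar, polyol and monocarboxylate carriers and of the chaperones Bsg and Emb in blue for the 3 keratinocyte-labelled and in red for the 3 MEF-labelled arrays, with a point for each array, a line for each mean and a grey band for the range of background. Slc16a3 is above the band in blue alone and Slc16a13 in red alone, while Slc2a1 lies between 9.27 and 9.66 on all 6 arrays.

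With the monocarboxylate carriers, the organic anion, cation and amine carriers came to 19 measured genes. Of these, 6 were higher on the keratinocyte-labelled and 8 on the MEF-labelled arrays, and 5 did not pass. The share called was 73.7%, beside 74.5% of all genes, and 11 genes (57.9%, beside 26.8%) were above background on no array. Slc22a23, an orphan member of the organic ion family, had 3.80, 3.69 and 3.15 on the keratinocyte-labelled and 7.08, 7.06 and 7.01 on the MEF-labelled arrays and was at least 2.55-fold higher on the MEF-labelled arrays (adjusted p = 3.03e-07). The creatine carrier Slc6a8 had 8.01, 8.03 and 7.92 on the keratinocyte-labelled and 9.00, 8.82 and 8.88 on the MEF-labelled arrays, 1.89-fold higher on the MEF-labelled arrays (adjusted p = 3.41e-05). Slc17a9, which loads ATP into vesicles, and Slc22a18, encoded in an imprinted cluster, were higher on the MEF-labelled arrays as well, with means of 5.92 against 3.43 and 4.71 against 3.61, both below background. Slc18b1, a vesicular polyamine carrier, was at least 1.08-fold higher on the keratinocyte-labelled arrays, with 6.49 against 4.78. The carnitine carrier Slc22a5 did not pass, at 4.57 against 4.54 (adjusted p = 0.874), under background. Of the related organic anion transporting polypeptides, named Slco and so outside the rule, 2 were measured. Slco3a1 was at least 1.56-fold higher on the keratinocyte-labelled arrays, and Slco4a1 was higher on the MEF-labelled ones, below background.

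Carriers of zinc and other metals were mostly above background: 22 of 23 were above it on at least 1 array, and 14 on all 6. Of the 23, 12 were higher on the keratinocyte-labelled arrays, 5 on the MEF-labelled arrays and 6 did not pass, with a median difference of 0.31. The share called was 73.9%, beside 74.5% of all genes, and by direction it was 52.2% and 21.7%, beside 32.9% and 41.7%. Most differences were small, and 4 genes reached 1 on the log2 scale. Slc39 proteins bring zinc into the cytosol, and of 9 measured, 5 were higher on the keratinocyte-labelled and 2 on the MEF-labelled arrays. Slc39a1 (ZIP1) had 9.24, 9.29 and 9.39 on the keratinocyte-labelled and 8.17, 8.17 and 8.24 on the MEF-labelled arrays, 2.16-fold higher on the keratinocyte-labelled arrays (adjusted p = 7.93e-06), and its second probe set gave 1.95-fold in the same direction. Slc39a14 (ZIP14) had 7.12, 7.05 and 7.12 on the keratinocyte-labelled and 6.15, 6.09 and 6.13 on the MEF-labelled arrays, 1.96-fold higher on the keratinocyte-labelled arrays (adjusted p = 1.28e-05), with 1 of 3 MEF-labelled arrays above background. Slc39a13 (ZIP13), a zinc carrier needed in connective tissue, was 1.38-fold higher on the same arrays with 8.04, 8.18 and 8.04 on the keratinocyte-labelled and 7.57, 7.65 and 7.64 on the MEF-labelled arrays (adjusted p = 0.00145). Slc39a6 and Slc39a11 went the other way, 1.28-fold and 1.39-fold higher on the MEF-labelled arrays. Importers of zinc were thus higher on either side.

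Slc30 proteins take zinc out of the cytosol. Of 7 measured, 3 were higher on the keratinocyte-labelled and 2 on the MEF-labelled arrays, and 2 did not pass. Among all genes, 32.9% were higher on the keratinocyte-labelled and 41.7% on the MEF-labelled arrays. Slc30a1 (ZnT1), the exporter at the plasma membrane and a known target of the zinc sensor MTF1, did not pass, with 5.47, 5.23 and 5.54 on the keratinocyte-labelled and 5.31, 5.25 and 5.33 on the MEF-labelled arrays, 1 of them above background (adjusted p = 0.322). With median centring it passed, at a difference of 0.25 (adjusted p = 0.0448). Slc30a6 was 1.34-fold higher on the MEF-labelled arrays (adjusted p = 0.0022), and Slc30a4 (ZnT4), which loads zinc into vesicles, was 1.19-fold higher there (adjusted p = 0.0341). In the other direction Slc30a5 was 1.67-fold, Slc30a9 at least 1.04-fold and Slc30a7 1.24-fold higher on the keratinocyte-labelled arrays (adjusted p = 6.29e-04, 0.00282 and 0.0313), all 3 named after their values were seen. The call of Slc30a7 was lost without replicate 1 or 3 of the keratinocyte-labelled and without replicate 1 or 2 of the MEF-labelled arrays. The call of Slc30a4 was lost without replicate 2 or 3 of the keratinocyte-labelled arrays, without each MEF-labelled replicate in turn (adjusted p of 0.0515 to 0.106) and with both scalings.

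Other metals gave the largest differences of the group. Slc40a1, ferroportin, the iron exporter, had 6.80, 6.65 and 6.57 on the keratinocyte-labelled and 0.62, 1.58 and 1.57 on the MEF-labelled arrays, at least 1.22-fold higher on the keratinocyte-labelled arrays (adjusted p = 2.30e-07). The magnesium carrier Slc41a2 had 7.15, 6.86 and 7.00 on the keratinocyte-labelled and 3.22, 2.72 and 1.67 on the MEF-labelled arrays, at least 1.53-fold higher (adjusted p = 5.79e-06). In both the MEF-labelled arrays scatter widely under background. Slc31a2, a relative of the copper importer, went the other way with 6.65, 6.26 and 6.34 on the keratinocyte-labelled and 7.60, 7.74 and 7.85 on the MEF-labelled arrays, 2.48-fold higher on the MEF-labelled arrays (adjusted p = 2.76e-05). Slc11a2, the iron importer DMT1, did not pass (adjusted p = 0.0535), with means of 6.87 and 7.12, and without replicate 1 of the keratinocyte-labelled arrays it passed toward the MEF-labelled ones (adjusted p = 0.0241). It also passed with the intensity trend (0.0354) and with both filters on dim probe sets (0.0268 and 0.0339). Among 10 measured metal-handling genes that are not carriers of this class, 3 were higher on the keratinocyte-labelled and 5 on the MEF-labelled arrays. That is 80% called, beside 74.5% of all genes. Without replicate 2 of the keratinocyte-labelled arrays, 5 of these 8 were called, and Mt3, Mtf1 and Tfrc were not. The metallothionein Mt1, which binds zinc and copper, had 8.77, 8.80 and 8.78 on the keratinocyte-labelled and 9.89, 9.96 and 10.04 on the MEF-labelled arrays, 2.26-fold higher on the MEF-labelled arrays (adjusted p = 4.74e-06). The copper chaperone Atox1 was 1.90-fold higher there and the copper pump Atp7a at least 1.56-fold higher on the keratinocyte-labelled arrays. Fth1, the ferritin heavy chain, was 1.42-fold higher on the MEF-labelled arrays.

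The metal response core, TGCACNC or TGCGCNC, through which MTF1 acts, was searched on both strands of the 250 bases before the start. It was found in 10 of the 18 metal carriers with a window (55.6%) and in 35.6% of measured genes. Promoters of Slc41a2, whose signal differed most among the 10, and of Slc30a5 are shown, both from GRCm38.p6 and as the last 100 bases before the start, at chr10:83337818-83337917 and chr13:100833428-100833527 on the minus strand, with the match, which lies on the opposite strand, in capitals. Slc30a5 is the zinc exporter described above, shown as a member of another family of the group.
Slc41a2: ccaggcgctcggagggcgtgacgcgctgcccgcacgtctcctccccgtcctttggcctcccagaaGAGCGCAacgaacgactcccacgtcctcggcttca
Slc30a5: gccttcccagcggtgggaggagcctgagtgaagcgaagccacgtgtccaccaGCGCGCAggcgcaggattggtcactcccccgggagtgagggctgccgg
The match of Slc41a2 lies 35 bases before its start and that of Slc30a5 48 bases. The core of Slc30a1 lies 43 bases before its start, and that gene did not pass the test.

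Carriers of inorganic ions were called for 10 of 14 genes, 6 toward the keratinocyte-labelled and 4 toward the MEF-labelled arrays, which is 71.4% called beside 74.5% of all genes. Slc4a11, a carrier of the bicarbonate family whose mutation clouds the cornea, had 3.24, 3.24 and 3.12 on the keratinocyte-labelled and 7.39, 7.56 and 7.63 on the MEF-labelled arrays, at least 3.55-fold higher on the MEF-labelled arrays (adjusted p = 6.43e-09), the largest difference of any Slc gene in that direction at -4.33 on the log2 scale. The chloride carriers that set cell volume opposed each other. Slc12a2 (NKCC1), which brings sodium, potassium and chloride in, had 8.14, 7.83 and 7.85 on the keratinocyte-labelled and 8.86, 8.96 and 8.98 on the MEF-labelled arrays, 1.99-fold higher on the MEF-labelled arrays (adjusted p = 6.53e-05). Slc12a4 (KCC1), which lets potassium and chloride out, had 8.09, 8.10 and 7.97 on the keratinocyte-labelled and 7.67, 7.56 and 7.69 on the MEF-labelled arrays, 1.33-fold higher on the keratinocyte-labelled arrays (adjusted p = 0.00322), and Slc12a7 (KCC4) was at least 1.17-fold higher there. The kinase gene Wnk1, which controls these carriers, had 8.87, 8.87 and 8.84 on the keratinocyte-labelled and 10.31, 10.35 and 10.39 on the MEF-labelled arrays, 2.81-fold higher on the MEF-labelled arrays (adjusted p = 8.30e-07), while its downstream kinases Stk39 and Oxsr1 did not pass (adjusted p = 0.826 and 0.489).

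Of the exchangers, Slc9a8, a sodium-proton exchanger of endosomes and Golgi, was 2.17-fold higher on the MEF-labelled arrays with 6.57, 6.54 and 6.50 on the keratinocyte-labelled and 7.59, 7.62 and 7.75 on the MEF-labelled arrays (adjusted p = 7.87e-06). Slc4a2 (AE2), which swaps chloride for bicarbonate, was 1.30-fold higher on the keratinocyte-labelled arrays (adjusted p = 0.00405). Slc24a3, a sodium-calcium-potassium exchanger, had 6.32, 6.39 and 6.29 on the keratinocyte-labelled and 4.89, 4.90 and 5.19 on the MEF-labelled arrays (adjusted p = 8.81e-06) and was above background on the keratinocyte-labelled arrays only, as was Slc4a3 with a mean of 5.88 against 5.27 (adjusted p = 0.00957, and 0.0576 by the methods' Student test). The phosphate carrier Slc20a1 had 9.15, 8.82 and 8.96 on the keratinocyte-labelled and 8.86, 8.97 and 9.03 on the MEF-labelled arrays and the sulfate carrier Slc26a2 6.26, 6.05 and 5.94 on the keratinocyte-labelled and 6.47, 6.33 and 6.25 on the MEF-labelled arrays, and neither passed (adjusted p = 0.824 and 0.0606), their groups overlapping. Slc26a2 passed without replicate 1 of the keratinocyte-labelled arrays (adjusted p = 0.0189) and with probe sets above background on at least 3 arrays (0.041).

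**Figure D4:**
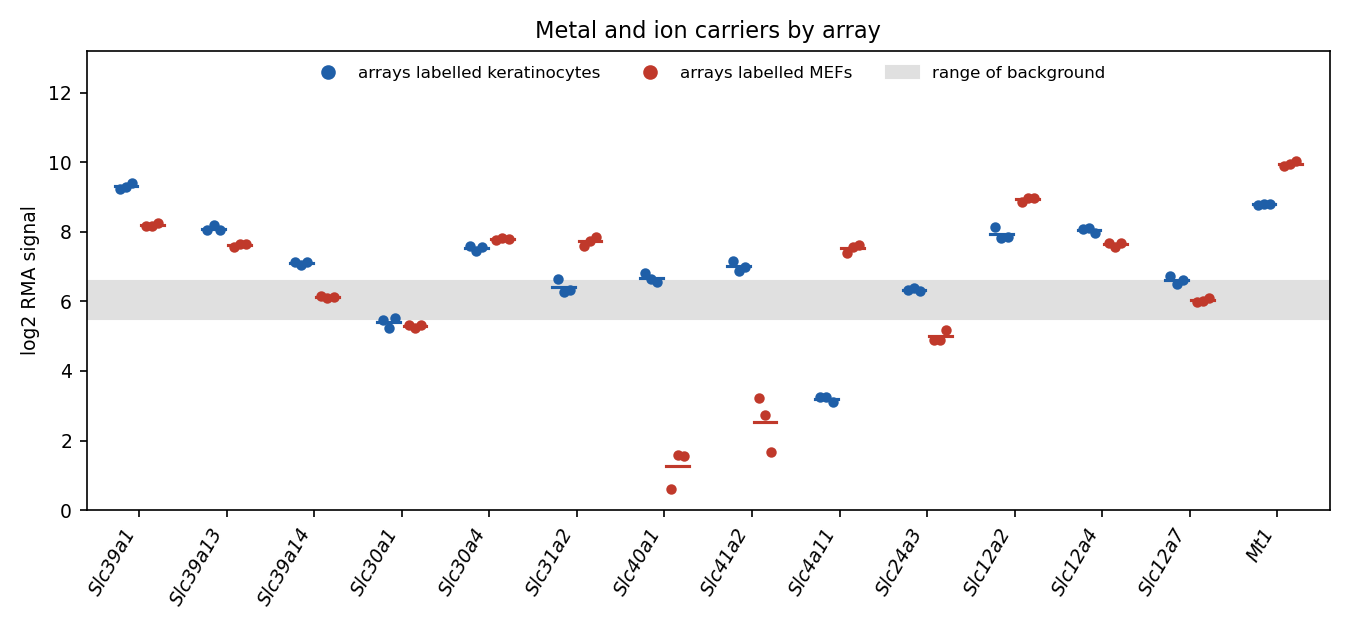
Log2 RMA signal (vertical axis) of metal and ion carriers and of the metallothionein Mt1 in blue for the 3 keratinocyte-labelled and in red for the 3 MEF-labelled arrays, with a point for each array, a line for each mean and a grey band for the range of background. Slc40a1 and Slc41a2 fall below the band in red and Slc4a11 in blue, while the zinc exporters Slc30a1 and Slc30a4 lie close together in both groups.

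Of 31 genes grouped as mitochondrial carriers, 18 were higher on the MEF-labelled arrays (58.1%, beside 41.7% of all genes), 6 on the keratinocyte-labelled arrays (19.4%, beside 32.9%) and 7 did not pass. The group rests mostly on the family number Slc25, so a member need not act in the inner mitochondrial membrane. The median was -0.44, beside -0.12 over all genes. With each array centred on its median, the median of this group is -0.31 beside 0.01 over all genes. The ADP/ATP carriers, which exchange ATP made in the matrix for ADP, went opposite ways. Slc25a5 (ANT2), the form of growing cells, had 8.82, 8.98 and 9.01 on the keratinocyte-labelled and 10.22, 10.18 and 10.21 on the MEF-labelled arrays, 2.41-fold higher on the MEF-labelled arrays (adjusted p = 4.11e-06). Its other 2 probe sets gave 2.45-fold and 2.44-fold in the same direction, but near-identical gene copies could share these probes. Slc25a4 (ANT1), the form of heart and muscle, had 10.43, 10.17 and 10.26 on the keratinocyte-labelled and 9.80, 10.00 and 9.96 on the MEF-labelled arrays, 1.29-fold higher on the keratinocyte-labelled arrays (adjusted p = 0.0136). Both aspartate-glutamate carriers of the malate-aspartate shuttle were higher on the MEF-labelled arrays. Slc25a13 (citrin) had 6.33, 6.19 and 6.13 on the keratinocyte-labelled and 7.98, 8.15 and 8.22 on the MEF-labelled arrays, 3.73-fold (adjusted p = 7.94e-07), and Slc25a12 (aralar) 7.47, 7.42 and 7.55 on the keratinocyte-labelled and 8.47, 8.58 and 8.54 on the MEF-labelled arrays, 2.07-fold (adjusted p = 1.12e-05).

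Less well characterised members showed the largest differences of the mitochondrial group. Slc25a48 had 2.76, 3.16 and 3.35 on the keratinocyte-labelled and 7.25, 7.28 and 7.19 on the MEF-labelled arrays, at least 2.91-fold higher on the MEF-labelled arrays (adjusted p = 6.13e-08), and Slc25a43 had 4.89, 4.99 and 4.98 on the keratinocyte-labelled and 7.29, 7.19 and 7.29 on the MEF-labelled arrays, at least 2.95-fold higher (adjusted p = 8.27e-08). Slc25a43 and Slc25a5 are neighbours on chromosome X with 0 protein-coding genes between them, and both were higher on the same arrays. The other Slc genes that adjoin in this way shared no such call throughout. Those of the Slc38 family split as given above, and Slc16a11 did not pass beside Slc16a13. Slc22a5 did not pass beside Slc22a21, which was higher on the keratinocyte-labelled arrays under background, and neither Slc7a6 nor Slc7a6os passed. Slc16a11, Slc22a21 and Slc7a6os are named as neighbours alone. Slc25a20, which carries acylcarnitines for fatty acid oxidation, was 1.53-fold higher on the keratinocyte-labelled arrays (adjusted p = 3.53e-04), with 7.17, 7.26 and 7.15 on the keratinocyte-labelled and 6.49, 6.67 and 6.58 on the MEF-labelled arrays, of which 1 MEF-labelled array was above background. The calcium-regulated ATP-phosphate carriers split: Slc25a23 was higher on the keratinocyte-labelled arrays, with 4.57 against 2.91 under background, and Slc25a24 was 1.25-fold higher on the MEF-labelled arrays (adjusted p = 0.0328). The call of Slc25a24 was lost without replicate 2 of the keratinocyte-labelled arrays and without replicate 2 or 3 of the MEF-labelled arrays (adjusted p of 0.0978 to 0.118). It was also lost with median centring (adjusted p = 0.116), quantile normalization (0.0663), the replicate number as a block (0.0664) and the methods' Student test (0.0691). Of the porins of the outer membrane, Vdac1 and Vdac2 were each 1.24-fold higher on the MEF-labelled arrays and Vdac3 did not pass. Without replicate 3 of the MEF-labelled arrays neither Vdac1 nor Vdac2 was called. Vdac2 was not called without replicate 2 of either group or replicate 3 of the keratinocyte-labelled arrays. With median centring Vdac1 and Vdac2 were not called, while Vdac3 was, and Vdac3 was also called with quantile normalization.

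**Figure D5:**
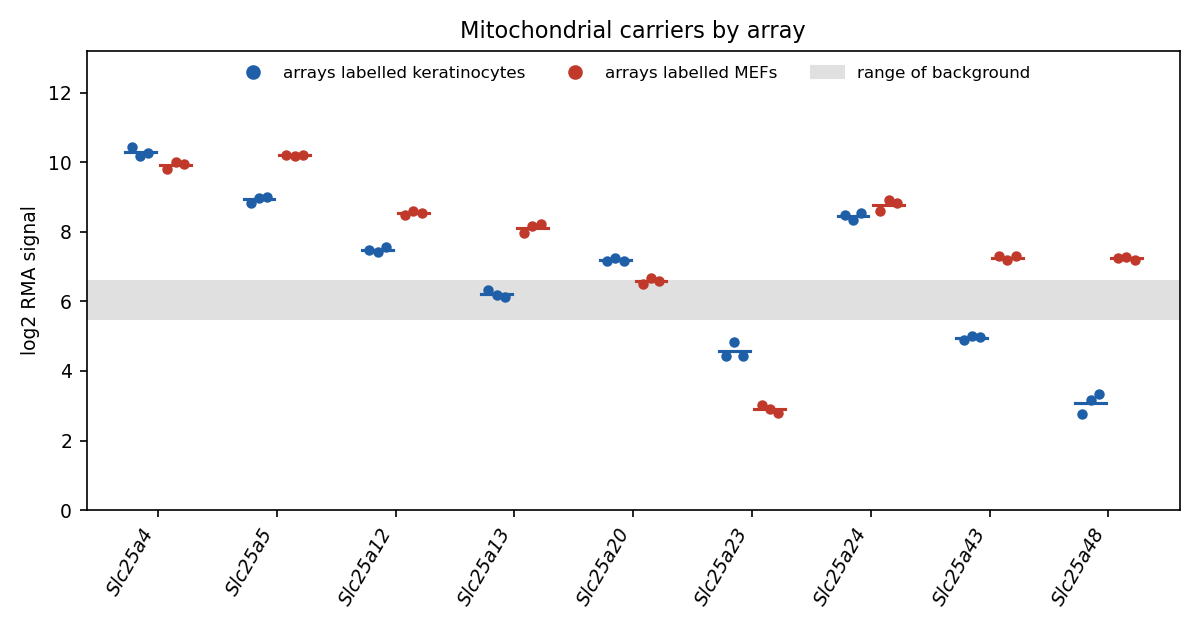
Log2 RMA signal (vertical axis) of 9 mitochondrial carriers in blue for the 3 keratinocyte-labelled and in red for the 3 MEF-labelled arrays, with a point for each array, a line for each mean and a grey band for the range of background. Slc25a5, Slc25a12, Slc25a13, Slc25a43 and Slc25a48 are higher in red, and Slc25a4, Slc25a20 and Slc25a23 in blue.

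Nucleotide sugar carriers, which bring activated sugars into the Golgi and endoplasmic reticulum for glycosylation, spanned the narrowest range of the substrate groups, from -1.09 to 1.29. Of 17, 6 were higher on the keratinocyte-labelled and 7 on the MEF-labelled arrays, and 4 did not pass, so that 76.5% were called beside 74.5% of all genes. Slc35a1, the carrier of CMP-sialic acid, had 6.49, 6.20 and 6.44 on the keratinocyte-labelled and 4.99, 5.10 and 5.19 on the MEF-labelled arrays (adjusted p = 1.27e-05), above background on the keratinocyte-labelled arrays only, and Slc35a2, that of UDP-galactose, had 7.14, 7.21 and 7.24 on the keratinocyte-labelled and 6.14, 6.04 and 6.08 on the MEF-labelled arrays, at least 1.75-fold higher on the keratinocyte-labelled arrays (adjusted p = 6.78e-06). Slc35b4, which carries UDP-xylose, was 1.51-fold higher there too. In the other direction Slc35c1, the carrier of GDP-fucose, had 6.08, 6.27 and 6.14 on the keratinocyte-labelled and 7.37, 7.10 and 7.29 on the MEF-labelled arrays, 2.12-fold higher on the MEF-labelled arrays (adjusted p = 2.99e-05), and Slc35a3, that of UDP-N-acetylglucosamine, was 1.69-fold higher. Slc35a4 was 1.30-fold higher there, and Slc35e4 and Slc35d1 were higher there under background (adjusted p = 0.00789, 2.74e-04 and 0.00765). With median centring Slc35a4 and Slc35d1 no longer passed (adjusted p = 0.0517 and 0.0543).

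Carriers of nucleosides, vitamins, lipids and other solutes were called for 18 of 21 genes, 8 toward the keratinocyte-labelled and 10 toward the MEF-labelled arrays, which is 85.7% called beside 74.5% of all genes. Slc43a3, a purine nucleobase carrier, had 7.52, 7.48 and 7.33 on the keratinocyte-labelled and 3.46, 3.48 and 2.71 on the MEF-labelled arrays, at least 2.08-fold higher on the keratinocyte-labelled arrays (adjusted p = 3.40e-07), and Slc29a1 (ENT1), the nucleoside carrier, had 8.18, 8.17 and 8.09 on the keratinocyte-labelled and 5.77, 5.64 and 5.76 on the MEF-labelled arrays, at least 3.38-fold higher (adjusted p = 6.87e-08). Of the 3 members of the Slc29 family measured, 2 were higher on the keratinocyte-labelled arrays, Slc29a1 and Slc29a3, and Slc29a2 (ENT2) on the MEF-labelled arrays under background, with 5.49 against 4.89. The call of Slc29a3 was lost without replicate 2 or 3 of either group. Slc52a3, which takes up riboflavin, had 3.27, 3.65 and 3.80 on the keratinocyte-labelled and 7.21, 7.37 and 7.18 on the MEF-labelled arrays, at least 2.94-fold higher on the MEF-labelled arrays (adjusted p = 1.04e-07). Slc23a2, a sodium-coupled vitamin C carrier, had 6.88, 6.57 and 6.60 on the keratinocyte-labelled and 7.93, 7.99 and 8.10 on the MEF-labelled arrays, 2.50-fold higher (adjusted p = 1.22e-05). The folate carrier Slc46a1, above background on 1 array of each group, was 2.14-fold higher there and the biotin carrier Slc5a6 had 4.42 against 3.83 under background (adjusted p = 1.23e-04 and 0.00279). Of the folate and thiamine carriers of the Slc19 family, Slc19a1 did not pass (adjusted p = 0.846) and Slc19a2 was 1.25-fold higher on the MEF-labelled arrays, a call lost with median centring. Slc29a2, Slc29a3, Slc19a1 and Slc19a2 were named after their values were seen.

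Lipid and choline carriers were mixed. Slc27a1, a fatty acid carrier, was 2.20-fold higher on the MEF-labelled arrays (adjusted p = 5.54e-05), and Slc44a2, a choline carrier-like protein, was 1.95-fold higher with 8.55, 8.31 and 8.32 on the keratinocyte-labelled and 9.34, 9.37 and 9.35 on the MEF-labelled arrays (adjusted p = 3.91e-05). Slc5a7, the high-affinity choline carrier of cholinergic nerve endings, had 5.62, 5.47 and 5.79 on the keratinocyte-labelled and 1.42, 1.88 and 1.21 on the MEF-labelled arrays (adjusted p = 1.63e-07), with 1 keratinocyte-labelled array above background. Slc44a1 had 8.23, 7.40 and 7.27 on the keratinocyte-labelled and 7.42, 7.55 and 7.47 on the MEF-labelled arrays and did not pass (adjusted p = 0.562), with replicate 1 of the keratinocyte-labelled arrays far above the other two. Without that array its difference turned to -0.15 (adjusted p = 0.198), while its second probe set passed toward the keratinocyte-labelled arrays at 0.27 on the log2 scale (adjusted p = 0.0432).

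The rule on the symbol also took in 4 genes that are named after a carrier and are not carriers themselves. Slc9a3r1, the scaffold NHERF1 that holds carriers at the apical membrane of epithelia, had 7.32, 7.60 and 7.58 on the keratinocyte-labelled and 8.68, 8.75 and 8.68 on the MEF-labelled arrays, 2.30-fold higher on the MEF-labelled arrays (adjusted p = 1.31e-05), and the other 3 did not pass. Without replicate 3 of the keratinocyte-labelled arrays 2 of the 4 passed. Among 10 measured partners and regulators of carriers, 3 were higher on the keratinocyte-labelled and 4 on the MEF-labelled arrays. That is 70% called, beside 74.5% of all genes. The ubiquitin ligases that remove carriers from the membrane were opposed. Nedd4 had 11.34, 11.24 and 11.14 on the keratinocyte-labelled and 10.23, 10.48 and 10.43 on the MEF-labelled arrays, 1.81-fold higher on the keratinocyte-labelled arrays (adjusted p = 1.15e-04), and Nedd4l had 5.95, 5.70 and 5.89 on the keratinocyte-labelled and 7.30, 7.55 and 7.47 on the MEF-labelled arrays, 3.02-fold higher on the MEF-labelled arrays (adjusted p = 3.32e-06), with 2 of 3 keratinocyte-labelled arrays above background. Of the subunits of the sodium pump, whose gradient drives many of these carriers, 2 were measured. Atp1b1 was higher on the keratinocyte-labelled arrays under background, with 5.39 against 3.28 (adjusted p = 6.62e-06), and Atp1b3 did not pass (adjusted p = 0.243). Of the 130 calls among the Slc genes, between 120 and 127 remained when an array was left out.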

How the data were processed

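The authors deposited log2 signals for 15648 probe sets, made from the scans by RMA normalization with the Bioconductor package oligo 1.46.0, per the labels. The sources used here do not state on which set of arrays RMA was run or by what criterion these probe sets were kept. RMA gives all arrays one distribution over their full set of probes, and it compresses dim signals, so a measured fold can understate a change. Probe sets were named through the platform's gene table, and the 11288 with 1 symbol were tested with limma 3.58.1 (R 4.3.3, lmFit and eBayes) on the 6 arrays without further scaling, with Benjamini-Hochberg adjustment over all of them and a threshold of 0.05. A gene with several probe sets (8 Slc genes) was represented by its brightest over 6 arrays. The script was tested on simulated data. The number of arrays limits the precision. Substrate groups were set by family and member.

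Genes named are a list of carriers known in skin or as basal carriers, the 10 called Slc genes of the largest difference in each direction that were above background in the brighter group, and in each substrate group the brightest gene and up to 3 called genes in each direction. Genes with probe sets called in opposite directions and up to 3 called genes a direction of the partner lists were added. The members, groups and lists were chosen with earlier results of these data known. Promoter sequences are RefSeq windows of GRCm38.p6, found for 134 of the 169 genes. Alternatives were a replicate block, each array left out, median centring, quantile normalization, an intensity trend, 2 filters on dim probe sets, the methods' Student test, the mean of probe sets and a minimum difference.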

Additional observations from a re-analysis of the deposited data

How the results depend on the processing

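No Slc gene called in the report was called in the opposite direction under an alternative that was run. Against 130 Slc calls, 133 were made with an intensity trend, 131 with the mean of probe sets, 131 with median centring (74 toward the keratinocyte-labelled and 57 toward the MEF-labelled arrays), 135 with quantile normalization, 127 with the methods' Student test, 97 of 112 genes above background on at least 3 arrays, and 120 to 132 when an array was left out. Of the Slc genes and of all genes tested, 86.6% and 82.1% were called with the filter on background. These shares were 79.9% and 73.3% with quantile normalization, 77.5% and 72.9% with median centring and 75.1% and 68.9% with the Student test. Leaving out probe sets below the median, which tests 81 Slc genes, gave 70 calls, 33 toward the keratinocyte-labelled and 37 toward the MEF-labelled arrays. That is 86.4% called, beside 81.7% of all genes tested. By group these 70 were 11 of 13 genes tested for amino acids, 4 of 4 for sugars, 5 of 6 for inorganic ions and 14 of 16 for mitochondrial carriers. They were 8 of 10 for nucleosides, vitamins and lipids, 4 of 5 for organic ions, 13 of 16 for metals, 10 of 10 for nucleotide sugars and 1 of 1 that is not a carrier. Outside the Slc genes the same filter gave 0 calls for the sodium pump and 0 for the organic anion transporting polypeptides. Among the calls with genes above background on at least 3 arrays were 6 of 6 tested for sugars, 11 of 13 for nucleosides, vitamins and lipids and 7 of 8 for organic ions. Outside the Slc genes there were 0 for the sodium pump and 1 for the organic anion transporting polypeptides. A minimum difference of 1 on the log2 scale left 59 calls (31 and 28), which is 34.9% of the Slc genes beside 28.4% of all genes. By group these were 13 of 27 for amino acids, 6 of 13 for sugars, 3 of 14 for inorganic ions and 7 of 31 for mitochondrial carriers. They were 10 of 21 for nucleosides, vitamins and lipids, 3 of 17 for nucleotide sugars, 4 of 23 for metals, 12 of 19 for organic ions and 1 of 4 genes that are not carriers. Outside the Slc genes a minimum difference of 1 left 4 of 10 for partners and 2 of 10 for metal handling. It left 1 of 2 for the organic anion transporting polypeptides and 0 of 4 for the porins with the pyruvate carrier gene Mpc1. Among the genes that are not carriers, median centring gave 2 calls, quantile normalization 2, and leaving out an array 1 to 2. Leaving out an array gave 5 to 8 calls for metal handling and 0 to 2 for the porins with the pyruvate carrier gene Mpc1. Median centring gave 1 call there, for Vdac3, and the calls of Vdac1 and Vdac2 were lost. In genes that were not called, the sign of the log2 difference turned. It ranged from -0.058 to 0.11 for Slc20a1, from -0.17 to 0.17 for Slc22a5 and from -0.15 to 0.34 for Slc44a1 when an array was left out, and was -0.083 for Slc22a5 with quantile normalization.

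The replicate numbers are shared by the groups, but same-numbered arrays did not deviate together (correlations of their deviations of -0.23, -0.21 and -0.03), so the numbers were not taken as a pairing. With the replicate number as a block, 121 Slc genes were called, 9 fewer, with 1 call for porins in place of 2. A wider background with vomeronasal and taste receptors was not run apart, since it holds the same 10 probe sets. Current gene symbols gave the same 130 calls.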
